A study of Mus musculus with 8 samples.

Results

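The 10 genes of the PERK, ATF4 and CHOP arm of the stress response were followed through 8 RNA-seq libraries of the mouse pituitary neuro-intermediate lobe (NIL). The 10 members were chosen by name, out of 48526 genes in the count table: the kinase gene Eif2ak3, the transcription factor genes Atf4, Atf5, Ddit3 and Atf3, the phosphatase subunit gene Ppp1r15a, and the target genes Trib3, Chac1, Asns and Sesn2. The lobe contains the melanotropes, whose main product is the hormone precursor POMC, and the neural lobe with its glia and axons. The 4 groups had 2 libraries each: WT mice, mice with the ACreb3l2 transgene, mice with the AXBP1 transgene, and ACreb3l2/AXBP1 mice that carry both. All were of the C57B6 strain, and each library was made from a pool of 5 lobes. The study's methods give males of 3 months of age. ACreb3l2 and AXBP1 are acidic dominant negative proteins, designed to pair with the bZIP transcription factor Creb3l2 or XBP1 and to keep it off DNA. Both transgenes were driven by the rat POMC promoter, which is active in melanotropes and in the corticotropes of the anterior lobe. The study selected 2 lines per transgene and showed results for 1 of them. Which line gave these libraries is not stated in the labels. The comparisons ask how transcripts respond when Creb3l2, XBP1 or both factors are blocked in these cells.

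The kinase PERK, encoded by Eif2ak3, sits in the membrane of the endoplasmic reticulum (ER) and is activated when unfolded proteins build up there. It phosphorylates the translation factor eIF2 on its alpha subunit, which slows translation in general but favours translation of ATF4. ATF4 is a bZIP factor that turns on genes for amino acid supply and, with prolonged stress, CHOP, the product of Ddit3. Other kinases that act on eIF2, and the amino acid response, feed into the same factor. GADD34, the product of Ppp1r15a, brings a phosphatase to eIF2 and closes the loop. Secretory cells such as melanotropes load their ER heavily, and XBP1 and the Creb3l2 family of membrane-bound factors act in other arms of the same ER response.

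ATF4 binds DNA with C/EBP family partners at composite elements, and CREB family factors bind sites with the core TGACGT, so the promoters of the 10 genes are shown first where they carry such letters. The 250 bases before each RefSeq start on GRCm38.p6 were searched on both strands, and all 10 genes matched the promoter table by symbol. The motif TGATGNAA was found in 3 of the 10 genes and in 3.45% of 32851 promoters, or 3.91% of 27025 gene symbols. The motif TGACGT was found in 2 genes and in 6.47% of promoters, or 7.29% of symbols. Its inner letters ACGT, which every TGACGT match contains, were found in 4 genes (Ddit3, Atf3, Ppp1r15a and Asns) and in 26.9% of promoters, or 29.6% of symbols. The matches are given below in the direction of transcription, with the motif in capitals. The first 3 lines carry TGATGNAA, on the opposite strand in Atf3 and Chac1, and the last 2 carry TGACGT, on the opposite strand in Atf3.
Atf3, minus strand, chr1:191183425-191183454: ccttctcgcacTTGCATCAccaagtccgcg
Chac1, plus strand, chr2:119351038-119351067: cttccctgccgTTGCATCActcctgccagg
Asns, minus strand, chr6:7693214-7693243: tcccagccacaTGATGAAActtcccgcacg
Ppp1r15a, minus strand, chr7:45526269-45526291: cgcctctccggTGACGTcagcac
Atf3, minus strand, chr1:191183334-191183352: ttaatagcattACGTCAgc
The Asns match ends 16 bases before the RefSeq start. This match and both Atf3 matches lie within the longer genes of the GENCODE annotation. In Ppp1r15a the letters also match on the opposite strand, 5 to 10 bases before the start, in overlap with the match shown. A match is a description of these letters and not a measured site, and the absence of one says nothing about other sequence.

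Totals ran from 28256086 to 37988912 counts per library, and 23862 to 24784 genes had a count. Of the 48526 genes, 15580 had a mean scaled count above 20 and were tested, and all 10 members passed this limit. Pomc took 6.91% to 14.6% of the counts. Creb3l2 and Xbp1 counts were not raised in the groups named for each single transgene: normalised read counts of Creb3l2 were 28682 and 28195 with the WT label and 27212 and 26775 with the ACreb3l2 label, while those of Xbp1 were 11877 and 13436 with the WT label and 12448 and 13850 with the AXBP1 label. Creb3l2 was lower in AXBP1 (18837 and 22833) and in ACreb3l2/AXBP1 (21205 and 14044) than in WT, while Xbp1 had 9155 and 9205 in ACreb3l2 and 17639 and 12854 in ACreb3l2/AXBP1. By RT-qPCR the study chose lines in which transgene transcripts were several times those of the endogenous factor. The difference between that measure and these counts was not tested. Group names are those of the labels throughout. The labels name melanotropes as the cell type, but markers of other cells were present in every library. The sum of 8 melanotrope markers, most of it Pomc, ran from 3726814 to 5517789 normalised read counts in WT, 3676020 to 4102083 in ACreb3l2, 3402448 to 3986954 in AXBP1 and 2211096 to 3000769 in ACreb3l2/AXBP1. The sum of 8 anterior lobe hormone and receptor genes ran from 149645 to 227369 in WT, 118570 to 154433 in ACreb3l2, 76762 to 78406 in AXBP1 and 100036 to 202555 in ACreb3l2/AXBP1. The sum of 7 endothelial markers ran from 5368 to 6703 in WT, 4440 to 8041 in ACreb3l2, 7258 to 9128 in AXBP1 and 7653 to 9433 in ACreb3l2/AXBP1, and that of 8 fibroblast and pericyte markers from 25904 to 33732, 24930 to 32916, 33861 to 39175 and 33837 to 39608 in the same order. The sums of pituicyte, macrophage, axon and erythroid markers overlapped WT in every transgenic group. No marker of any list was at 0 in all libraries.

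In WT lobes the members spanned a wide range of abundance. In FPKM, which is scaled per kilobase so that genes can be compared, Atf4 was highest with a level of 130 ± 5.23 (SD, n = 2). It lay above 98% of the genes detected in WT. Asns followed at 54.9 ± 3.34, Ddit3 at 40 ± 2.7 and Ppp1r15a at 39.1 ± 5.03, and the FPKM ranges of the last pair overlapped. Atf5 had 28 ± 0.367, Chac1 21.6 ± 3.97 and Eif2ak3 17.5 ± 0.909, of which the ranges of Chac1 (18.7 to 24.4) and Eif2ak3 (16.8 to 18.1) came close without overlap. Sesn2 had 12.5 ± 2.82 FPKM, Atf3 8.68 ± 3.4 and Trib3 5.84 ± 0.829. The ranges of these 3 overlapped in neighbouring pairs, from 10.5 to 14.5 for Sesn2, 6.27 to 11.1 for Atf3 and 5.25 to 6.43 for Trib3. Atf4 remained the most abundant member in ACreb3l2 (69.7 FPKM), AXBP1 (66.3) and ACreb3l2/AXBP1 (49.5).

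Most members were lower than in WT in each transgenic group, and edgeR called falls only in the lobes that carried ACreb3l2, alone or with AXBP1. In ACreb3l2 against WT, edgeR called 7 of the 10 genes, all lower, at a Benjamini-Hochberg adjusted p under 0.05. Over all tested genes 3.04% were called, and 2.5% were called lower. In ACreb3l2/AXBP1 against WT 9 of the 10 were called, again all lower, while 10.1% of all tested genes were called and 6.99% were called lower. In AXBP1 against WT edgeR called 0 members and 0% of all genes. There 9 members had an unadjusted p under 0.05, as did 9.97% of all genes, and DESeq2, run on the same counts, called 6 members among 73 genes. The 3 comparisons share the WT libraries.

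The 10 genes had a median log2 change of -0.79 with ACreb3l2, -0.85 with AXBP1 and -1.01 with both transgenes, beside medians of 0.01, 0 and 0.01 over all tested genes. The libraries of a group resembled each other in this. Relative to the WT mean, the median of the 10 genes on the log2 scale was -0.74 and -0.82 in the ACreb3l2 libraries, -0.77 and -0.90 in the AXBP1 libraries and -0.91 and -1.05 in the ACreb3l2/AXBP1 libraries, with -0.08 and 0.08 in WT. Both libraries lay below both WT libraries for 9 members in ACreb3l2 (23.2% of all genes), for 9 in AXBP1 (23.8%) and for all 10 in ACreb3l2/AXBP1 (28.7%).

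**Figure D1:**
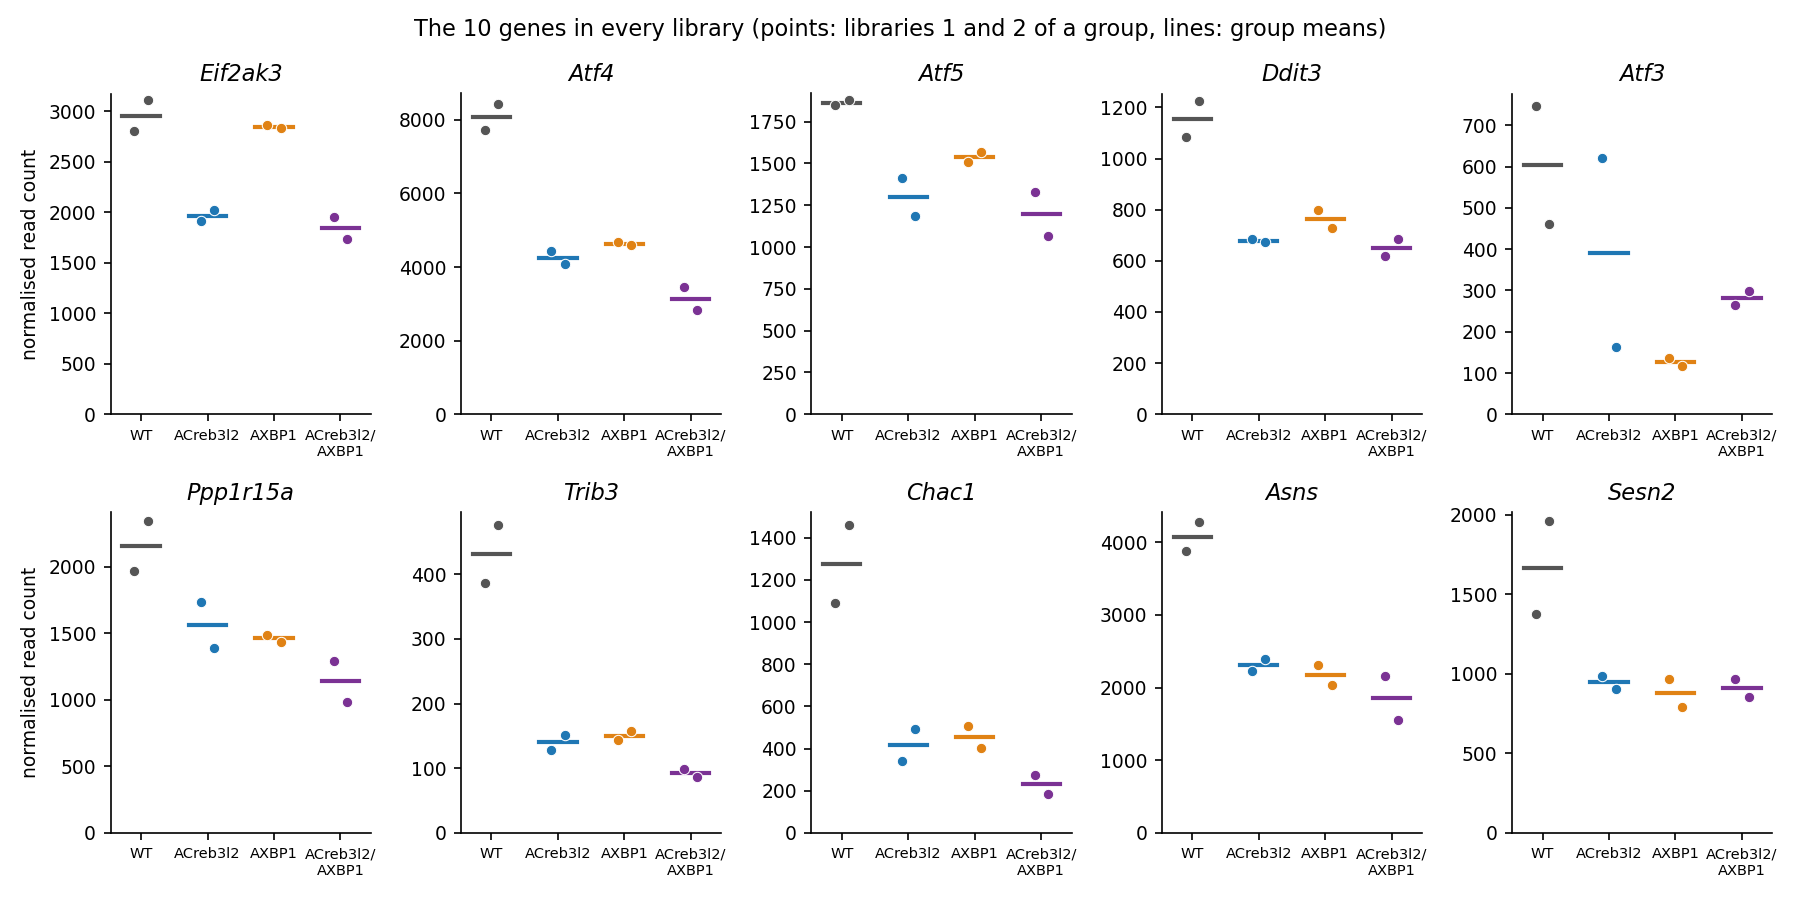
Normalised read counts of the 10 genes in each library, 1 panel per gene with an axis from 0; points are the 2 libraries of a group and lines are group means. All but 1 gene in ACreb3l2 (Atf3) and in AXBP1 (Eif2ak3), and all 10 in ACreb3l2/AXBP1, have both points below both WT points.

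The counts of calls rested in part on single libraries. Without WT replicate 2, 3 members were called in ACreb3l2 (Atf4, Ddit3 and Trib3) and 6 in ACreb3l2/AXBP1 (Eif2ak3, Atf4, Ddit3, Trib3, Chac1 and Asns). Calls over all genes were fewer there too, 158 and 355 of 15580. The ACreb3l2 count was 4 without ACreb3l2 replicate 1 and 4 without replicate 2, and the ACreb3l2/AXBP1 count was 6 without ACreb3l2/AXBP1 replicate 2, where 195, 153 and 218 genes in all were called. No called member changed direction under any of the 17 alternatives.

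In bulk tissue, fewer cells of a type and less RNA per cell cannot be told apart. Of the 8 melanotrope markers 7 were tested, with a median log2 change of -0.25 with ACreb3l2, -0.33 with AXBP1 and -0.66 with both transgenes. The other, Neurod1, was under the limit of the mean count and went the other way. It had 6.8 and 4.36 normalised read counts in WT and 8.08 to 17.8 in the transgenic libraries. With both, Tbx19, the gene of the factor Tpit, fell by 0.88 on the log2 scale (adjusted p = 0.0245 in edgeR) and Scg2, a granule protein gene, by 0.57 (adjusted p = 0.0253 in edgeR). The log2 value of Pomc was -0.84 (adjusted p = 0.0614 in edgeR). Pax7, the factor that sets melanotrope identity, had a log2 change of -0.08 and the dopamine receptor gene Drd2 one of -0.19. The 8 pituicyte and astroglia markers had a median log2 change of 0.47 with ACreb3l2, 0.17 with AXBP1 and 0.38 with both. Of these Lcn2, a secreted lipid carrier gene, fell by 0.90 on the log2 scale with ACreb3l2 (adjusted p = 0.00587 in edgeR) and by 1.05 with both (adjusted p = 0.00248 in edgeR), and the water channel gene Aqp4 rose by 0.51 with both (adjusted p = 0.0464 in edgeR). The part of such shifts, and of those in the anterior lobe, endothelial and fibroblast sums above, in the fall of the members was not tested.

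Eif2ak3 (ENSMUSG00000031668, mm10 chromosome 6, 70844515 to 70905245), the PERK gene, fell in both groups with ACreb3l2 and was near its WT level in AXBP1. It had 2802 and 3107 normalised read counts in the WT libraries, 1909 and 2024 with ACreb3l2, 2859 and 2838 with AXBP1 and 1948 and 1736 with both transgenes. All 4 libraries labelled with ACreb3l2 lay below the other 4, and the AXBP1 libraries lay between the WT libraries. Its log2 change from WT was -0.59 in ACreb3l2 (± 0.09 SE, adjusted p = 0.00794 in edgeR), -0.05 in AXBP1 (± 0.0893 SE, adjusted p = 0.843 in edgeR) and -0.68 in ACreb3l2/AXBP1 (± 0.0901 SE, adjusted p = 0.00293 in edgeR). The call in ACreb3l2 was lost without WT replicate 2 or without ACreb3l2 replicate 1, with a highest adjusted p of 0.0689 over the alternatives, and that in ACreb3l2/AXBP1 held in all of them. An antisense gene, Gm43292, shares 485 exon bases with Eif2ak3, or 8.05% of its exons, but had a mean of only 3.12 counts.

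Atf4 (ENSMUSG00000042406, chromosome 15, 80255184 to 80257541), the central factor of the pathway, had 7729 and 8435 normalised read counts in WT. It had 4434 and 4079 with ACreb3l2, 4675 and 4605 with AXBP1 and 3466 and 2820 with both transgenes. All 6 transgenic libraries lay below WT, and both ACreb3l2/AXBP1 libraries lay below all of the single transgenic ones. Mean levels were 52.7%, 57.4% and 38.9% of WT in that order. The log2 change was -0.92 in ACreb3l2 (± 0.106 SE, adjusted p = 0.0021 in edgeR) and -1.36 in ACreb3l2/AXBP1 (± 0.108 SE, adjusted p = 0.000364 in edgeR), and both calls held in all 17 alternatives. In AXBP1 it was -0.80 (± 0.106 SE), with an edgeR adjusted p of 0.0769. It was called in 6 of 17 alternatives, DESeq2 and the fits of FPKM values among them. On FPKM the median of all tested genes was itself shifted in AXBP1 against WT, to -0.13 with a pseudocount of 1 and -0.16 with 0.1.

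Atf5 (ENSMUSG00000038539, chromosome 7, 44812256 to 44816658) encodes a factor related to ATF4 that is translated in the same way when eIF2 is phosphorylated. It had 1850 and 1878 normalised read counts in WT, 1414 and 1185 with ACreb3l2, 1506 and 1566 with AXBP1 and 1329 and 1064 with both transgenes. The transgenic libraries were lower than WT in all groups, and those of ACreb3l2 and ACreb3l2/AXBP1 overlapped. Its log2 change was -0.64 in ACreb3l2/AXBP1 (± 0.121 SE, adjusted p = 0.0132 in edgeR), a call lost without WT replicate 2 or ACreb3l2/AXBP1 replicate 2. In ACreb3l2 it was -0.52 with an edgeR adjusted p of 0.0503, which 5 of 17 alternatives called, and in AXBP1 -0.28 (adjusted p = 0.495 in edgeR). The counts of Atf5 are uncertain, since Nup62 on the opposite strand shares 82 of its exon bases (4.11%) and had a mean of 1028 counts.

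Ddit3 (ENSMUSG00000025408, chromosome 10, 127290774 to 127296288), which encodes CHOP, had 1085 and 1224 normalised read counts in WT. It had 686 and 673 with ACreb3l2, 800 and 729 with AXBP1 and 617 and 684 with both transgenes. The 3 transgenic groups lay well below WT, and ACreb3l2 and ACreb3l2/AXBP1 overlapped. The log2 change was -0.76 in ACreb3l2 (± 0.106 SE, adjusted p = 0.00481 in edgeR), -0.59 in AXBP1 (± 0.106 SE, adjusted p = 0.222 in edgeR) and -0.83 in ACreb3l2/AXBP1 (± 0.106 SE, adjusted p = 0.00258 in edgeR). The call in ACreb3l2 was lost without ACreb3l2 replicate 2 (adjusted p = 0.054 in edgeR), and 2 of 17 alternatives called the change in AXBP1. Mars, which encodes methionyl tRNA synthetase, lies on the opposite strand, shares 68 exon bases with Ddit3 (3.97%) and had a mean of 2697 counts, so these values are uncertain too.

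Atf3 (ENSMUSG00000026628, chromosome 1, 191170296 to 191218039) encodes a stress factor that many signals also induce rapidly. It had 746 and 461 normalised read counts in WT, 621 and 163 with ACreb3l2, 136 and 117 with AXBP1 and 266 and 298 with both transgenes. The ACreb3l2 libraries differed several times over, and 1 of them lay between the WT libraries. The AXBP1 libraries were the lowest of all. No change was called: the log2 values were -0.61 in ACreb3l2 (± 0.602 SE, adjusted p = 0.68 in edgeR), -2.25 in AXBP1 (± 0.663 SE, adjusted p = 0.484 in edgeR) and -1.10 in ACreb3l2/AXBP1 (± 0.614 SE, adjusted p = 0.295 in edgeR). Without ACreb3l2 replicate 1 the ACreb3l2 value was -1.89 and was called (adjusted p = 0.0319 in edgeR), and without replicate 2 it was 0.04. The change in ACreb3l2/AXBP1 was called in 4 of 17 alternatives.

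Early response genes also varied between libraries of a group. The summed level of 12 such genes, among them Fos, Egr1, Junb and Nr4a1, was 76867 and 43927 normalised read counts in WT, 44783 and 25453 with ACreb3l2, 25268 and 30080 with AXBP1 and 45576 and 28226 with both transgenes. Replicate 1 was the higher library in WT and ACreb3l2 for both Atf3 and the sum, whereas in AXBP1 and ACreb3l2/AXBP1 the order of the libraries differed between them. Of the 11 early response genes tested edgeR called 0 against WT in any group, with 1 lower and 1 higher with ACreb3l2, 1 lower with AXBP1 and 0 with both transgenes at an unadjusted p under 0.05 (16.8%, 9.97% and 29.7% of all genes in either direction), and 0, 1 and 0 called lower by DESeq2. Their median log2 changes were -0.71, -0.94 and -0.76. Over the alternatives up to 9, 10 and 9 genes of the list were called lower in the same order, and up to 0, 0 and 1 higher. The part of this variation in the values of Atf3 was not tested.

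**Figure D2:**
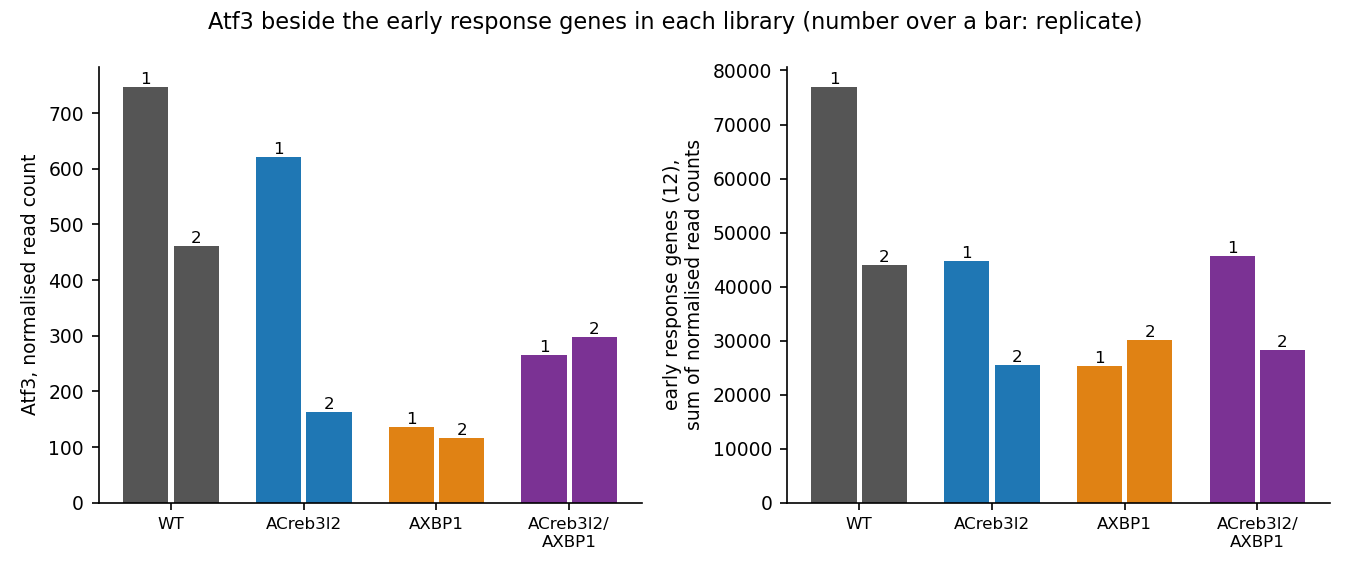
Normalised read counts of Atf3 (left) and summed normalised read counts of 12 early response genes (right), 1 bar per library with its replicate number, axes from 0. Atf3 runs from 117 in an AXBP1 library to 746 in WT replicate 1, which is also the highest library of the early response sum.

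Ppp1r15a (ENSMUSG00000040435, chromosome 7, 45522916 to 45526268), the GADD34 gene, had 1970 and 2344 normalised read counts in WT, 1738 and 1391 with ACreb3l2, 1487 and 1436 with AXBP1 and 1289 and 986 with both transgenes. The ACreb3l2/AXBP1 libraries were the lowest, and the AXBP1 libraries lay within the range of ACreb3l2. In edgeR the change in ACreb3l2/AXBP1 alone was called, at -0.92 on the log2 scale (± 0.152 SE, adjusted p = 0.00914 in edgeR), and it was lost without WT replicate 2 or ACreb3l2/AXBP1 replicate 2. The changes in ACreb3l2 and AXBP1 were -0.46 (adjusted p = 0.157 in edgeR) and -0.56 (adjusted p = 0.474 in edgeR). Ppp1r15b, the constitutive counterpart of GADD34, had 3952 and 3954 normalised read counts in WT and 3430 and 3489 in ACreb3l2/AXBP1.

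The largest called falls among the members were those of Trib3 and Chac1, both targets of ATF4 and CHOP. Trib3 (ENSMUSG00000032715, chromosome 2, 152337422 to 152344032) encodes a pseudokinase that binds ATF4 and limits its activity. It had 386 and 477 normalised read counts in WT, 128 and 152 with ACreb3l2, 143 and 157 with AXBP1 and 98.9 and 86.1 with both transgenes. The single transgenic groups overlapped, and the ACreb3l2/AXBP1 libraries lay below both. Its log2 change was -1.62 in ACreb3l2 (± 0.173 SE, adjusted p = 0.00136 in edgeR) and -2.22 in ACreb3l2/AXBP1 (± 0.179 SE, adjusted p = 0.000364 in edgeR), calls that held in all alternatives. In AXBP1 the log2 change was -1.52 (± 0.172 SE, adjusted p = 0.0769 in edgeR), and 7 of 17 alternatives called it.

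Chac1 (ENSMUSG00000027313, chromosome 2, 119351229 to 119354381) encodes an enzyme that degrades glutathione. It had 1091 and 1459 normalised read counts in WT, 339 and 491 with ACreb3l2, 508 and 404 with AXBP1 and 275 and 186 with both transgenes. Both libraries with both transgenes were the lowest, with a mean of 18.1% of WT. The log2 change was -1.63 in ACreb3l2 (± 0.25 SE, adjusted p = 0.0164 in edgeR), -1.48 in AXBP1 (± 0.248 SE, adjusted p = 0.309 in edgeR) and -2.47 in ACreb3l2/AXBP1 (± 0.261 SE, adjusted p = 0.00281 in edgeR). Without WT replicate 2 or without ACreb3l2 replicate 1 the ACreb3l2 call was lost, with a highest adjusted p of 0.0875. The ACreb3l2/AXBP1 call held in all alternatives, and 3 of 17 called the change in AXBP1. Its promoter match shown above has the same 8 letters as that of Atf3, whose change was not called.

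Asns (ENSMUSG00000029752, chromosome 6, 7675169 to 7693254) encodes asparagine synthetase, the classical target of the amino acid response. It had 3878 and 4281 normalised read counts in WT, 2227 and 2396 with ACreb3l2, 2315 and 2038 with AXBP1 and 2153 and 1559 with both transgenes. All transgenic libraries lay below WT. The AXBP1 range overlapped those of both other transgenic groups, and the ACreb3l2/AXBP1 libraries lay below the ACreb3l2 libraries. The log2 change was -0.82 in ACreb3l2 (± 0.142 SE, adjusted p = 0.0172 in edgeR), -0.91 in AXBP1 (± 0.142 SE, adjusted p = 0.187 in edgeR) and -1.14 in ACreb3l2/AXBP1 (± 0.143 SE, adjusted p = 0.00301 in edgeR). The ACreb3l2 call was lost without WT replicate 2, ACreb3l2 replicate 1 or ACreb3l2 replicate 2 (highest adjusted p 0.13), and the ACreb3l2/AXBP1 call held in all alternatives. The change in AXBP1 was called in 6 of 17, among them DESeq2 and both FPKM fits, whose shifted medians are given under Atf4.

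Sesn2 (ENSMUSG00000028893, chromosome 4, 132492032 to 132510501) encodes sestrin 2, which restrains the growth kinase complex mTORC1 when amino acids are short. Its 1373 and 1959 normalised read counts in WT were far apart. It had 986 and 905 with ACreb3l2, 967 and 793 with AXBP1 and 968 and 851 with both transgenes. The 3 transgenic groups overlapped, and the difference between ACreb3l2/AXBP1 and ACreb3l2 was -0.06 on the log2 scale (± 0.169 SE). The log2 change was -0.82 in ACreb3l2 (± 0.168 SE, adjusted p = 0.0375 in edgeR), -0.92 in AXBP1 (± 0.169 SE, adjusted p = 0.309 in edgeR) and -0.87 in ACreb3l2/AXBP1 (± 0.169 SE, adjusted p = 0.0167 in edgeR). Its call in ACreb3l2 was the least steady of the members: 7 of 17 alternatives made it, and it was lost without WT replicate 2 and without any 1 library of ACreb3l2 or ACreb3l2/AXBP1 (highest adjusted p 0.201). The call in ACreb3l2/AXBP1 was lost without WT replicate 2 or ACreb3l2/AXBP1 replicate 2, and 3 of 17 alternatives called the change in AXBP1.

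**Figure D3:**
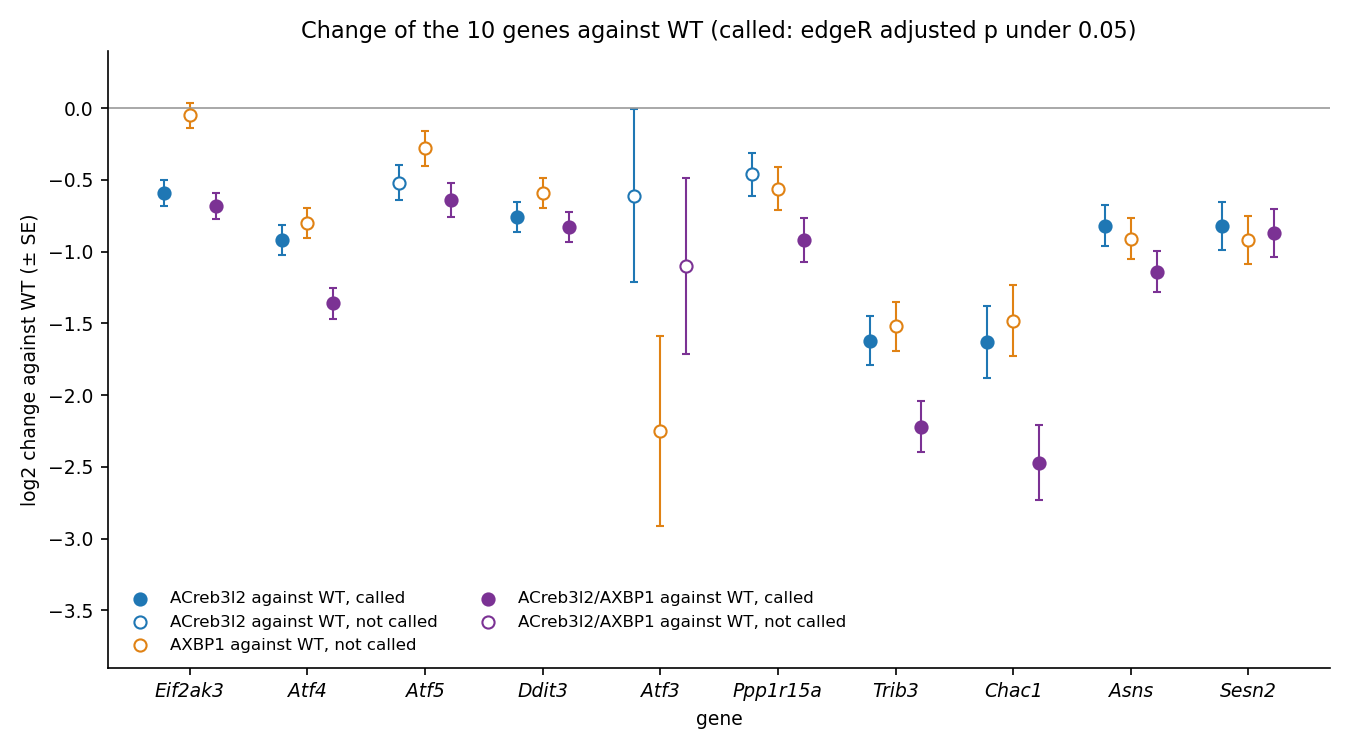
Log2 change of the 10 genes against WT in the 3 transgenic groups with the standard error of the edgeR fit; filled points were called at an adjusted p under 0.05 and open points were not. Chac1 (-2.47) and Trib3 (-2.22) lie lowest in ACreb3l2/AXBP1, Eif2ak3 stays near 0 in AXBP1 (-0.05), and the error bars of Atf3 are the widest.

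Between the single transgenic groups, Eif2ak3 was the only member called. It was lower in ACreb3l2 than in AXBP1 by a log2 change of -0.53 (± 0.09 SE, adjusted p = 0.0266 in edgeR), where 0.719% of all genes were called and 0.68% were called lower. This call was lost in the fits of FPKM values and with any 1 library of the 2 groups left out, and without ACreb3l2 replicate 2 Atf3 was called instead, higher in ACreb3l2 by a log2 change of 2.29 (adjusted p = 0.0195 in edgeR). On FPKM the median of all tested genes in this comparison was 0.15 with a pseudocount of 1 and 0.18 with 0.1. The log2 difference of the other members was between -0.24 for Atf5 and 0.10 for Ppp1r15a and Sesn2, apart from 1.65 for Atf3 (± 0.664 SE, adjusted p = 0.536 in edgeR). Both ACreb3l2 libraries lay below both AXBP1 libraries for 4 members (22.4% of all genes) and above them for Atf3, and the other 5 overlapped.

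With AXBP1 added to ACreb3l2 all 10 members had negative log2 changes, but edgeR called 0 of them and 0% of all genes. Some were small, with -0.12 for Atf5 (± 0.121 SE), -0.06 for Ddit3 (± 0.107 SE) and -0.06 for Sesn2 (± 0.169 SE). These values and that of Atf3 changed sign in some fits with a library left out. The 4 members Atf4, Ppp1r15a, Trib3 and Chac1 had an unadjusted p under 0.05, as did 7.14% of all genes, and DESeq2 and the fit of FPKM values called 0 members. The log2 change was -0.44 for Atf4 (± 0.106 SE, adjusted p = 0.688 in edgeR), -0.59 for Trib3 (± 0.184 SE) and -0.84 for Chac1 (± 0.263 SE), and -0.09 for Eif2ak3 (± 0.0902 SE). Both ACreb3l2/AXBP1 libraries lay below both ACreb3l2 libraries for 5 members (18.6% of all genes).

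Adding ACreb3l2 to AXBP1 lowered Eif2ak3, with a log2 change of -0.63 (± 0.0901 SE, adjusted p = 0.0151 in edgeR), beside 0.623% of all genes called and 0.616% called lower. This call was lost in the fits of FPKM values and without AXBP1 replicate 1, AXBP1 replicate 2 or ACreb3l2/AXBP1 replicate 2, with a highest adjusted p of 0.179. On FPKM the median of all tested genes here was 0.1 with a pseudocount of 1 and 0.12 with 0.1. Atf4 had a log2 change of -0.56 (± 0.106 SE, adjusted p = 0.0526 in edgeR), which 5 of 17 alternatives called. It was -0.70 for Trib3 (± 0.184 SE, adjusted p = 0.167 in edgeR), -0.99 for Chac1 (± 0.262 SE, adjusted p = 0.214 in edgeR) and 1.15 for Atf3 (± 0.67 SE, adjusted p = 0.599 in edgeR). Both ACreb3l2/AXBP1 libraries lay below both AXBP1 libraries for 7 members (24% of all genes) and above them for Atf3. Asns and Sesn2 overlapped, with log2 changes of -0.23 and 0.05.

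The interaction, the log2 change in ACreb3l2/AXBP1 less the sum of the changes of the single transgenes, was called for 0 members and for 0% of all genes. Its value was positive for 9 of the 10 members, with a median of 0.56 beside 0 over all tested genes. A positive value here is a fall smaller than the sum. It was 0.36 for Atf4 (± 0.15 SE), 0.93 for Trib3 (± 0.251 SE), 0.53 for Ddit3 (± 0.151 SE), 0.59 for Asns (± 0.201 SE) and 0.86 for Sesn2 (± 0.239 SE), all with an unadjusted p under 0.05 and an edgeR adjusted p of 1. Such unadjusted values were found for 2.48% of all genes, and DESeq2 and the fit of FPKM values called 0 members. For Eif2ak3 it was -0.04 (± 0.127 SE).

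Some of the genes that ATF4 is known to turn on were called lower in the groups with ACreb3l2. The 3 lists of enzymes for amino acid and one-carbon synthesis, of amino acid transporters and of tRNA synthetases had 32 tested genes in all. Of these 10 were called lower in ACreb3l2 and 23 in ACreb3l2/AXBP1, and 0 were called higher. The shares of all tested genes called lower, 2.5% and 6.99%, stand beside these and the list counts that follow, and the unadjusted p was under 0.05 for 16.8% of all genes with ACreb3l2, 9.97% with AXBP1 and 29.7% with both transgenes. In AXBP1 edgeR called 0 of the 32, with 21 lower at an unadjusted p under 0.05, and DESeq2 called 7. In the synthesis list 7 of 11 genes were called lower in ACreb3l2 (3 with 1 of the ACreb3l2 libraries left out) and 8 in ACreb3l2/AXBP1 (4 without ACreb3l2/AXBP1 replicate 2), with medians of -0.72, -0.47 and -0.80 in ACreb3l2, AXBP1 and ACreb3l2/AXBP1. The medians over all tested genes were 0.01, 0 and 0.01.

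Aldh1l2, a mitochondrial folate enzyme gene, had 742 and 686 normalised read counts in WT, 107 and 76.5 with ACreb3l2, 311 and 230 with AXBP1 and 93.9 and 88.8 with both transgenes. All 4 libraries with ACreb3l2 were far below the AXBP1 libraries, which in turn were below WT. Its log2 change was -2.95 in ACreb3l2 (± 0.197 SE, adjusted p = 0.000186 in edgeR), -1.40 in AXBP1 (± 0.179 SE, adjusted p = 0.0769 in edgeR) and -2.97 in ACreb3l2/AXBP1 (± 0.196 SE, adjusted p = 0.000172 in edgeR). Pycr1, which makes proline, had a log2 change of -2.79 in ACreb3l2 (adjusted p = 0.00476 in edgeR), -0.47 in AXBP1 (adjusted p = 0.58 in edgeR) and -2.52 in ACreb3l2/AXBP1 (adjusted p = 0.00455 in edgeR). Both genes were also called lower in ACreb3l2 than in AXBP1, Aldh1l2 by a log2 change of -1.55 (adjusted p = 0.00745 in edgeR) and Pycr1 by -2.32 (adjusted p = 0.0217 in edgeR). Shmt2, of mitochondrial serine and glycine metabolism, changed by -0.72 in ACreb3l2 (adjusted p = 0.00449 in edgeR) and -0.85 in ACreb3l2/AXBP1 (adjusted p = 0.00198 in edgeR). The calls of these 3 genes against WT held in all alternatives.

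Of 13 tRNA synthetase and export genes, 3 were called lower in ACreb3l2 (9 by DESeq2, 1 without ACreb3l2 replicate 2) and 12 in ACreb3l2/AXBP1 (4 without ACreb3l2/AXBP1 replicate 2, 5 without WT replicate 2). The list had a median log2 change of -0.52 with ACreb3l2, -0.44 with AXBP1 and -0.72 with both transgenes. In AtT-20 pituitary cells the study reported binding of Creb3l2 itself near the start of most aminoacyl tRNA synthetase genes. The parts of ATF4 and of Creb3l2 binding in these falls were not tested. Xpot, the tRNA exporter, changed by -0.72 in ACreb3l2/AXBP1 (adjusted p = 0.00233 in edgeR), Tars by -0.97 (adjusted p = 0.0025 in edgeR), Gars by -0.74 (adjusted p = 0.00439 in edgeR) and Eprs, the widest of the list, by -1.24 (adjusted p = 0.042 in edgeR). Of 8 transporter genes tested 0 were called in ACreb3l2 (5 lower at an unadjusted p under 0.05, 1 by DESeq2) and 3 were lower in ACreb3l2/AXBP1 (0 without WT replicate 2). These were Slc7a1, a carrier of cationic amino acids (-1.16, adjusted p = 0.00758 in edgeR), Slc1a5 (-0.56, adjusted p = 0.0211 in edgeR) and Slc3a2 (-0.62, adjusted p = 0.0285 in edgeR).

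Other genes linked to ATF4 formed a further list of 15. Of 12 tested, edgeR called 0 in ACreb3l2 (3 lower and 1 higher at an unadjusted p under 0.05, 3 lower by DESeq2) and 3 lower in ACreb3l2/AXBP1 (1 without ACreb3l2/AXBP1 replicate 2; 2 higher at an unadjusted p under 0.05 and 1 higher by DESeq2), with medians of -0.11, -0.22 and -0.28 in ACreb3l2, AXBP1 and ACreb3l2/AXBP1. The 3 genes were Herpud1, of ER protein degradation (-0.56, adjusted p = 0.00724 in edgeR), the lipoprotein receptor gene Vldlr (-0.78, adjusted p = 0.0166 in edgeR) and Eif4ebp1, which encodes a repressor of translation (-2.43, adjusted p = 0.0186 in edgeR). The call of Herpud1 held in all alternatives. The 3 genes of the list under the limit of the mean count, which the medians leave out, were highest in WT. Gdf15, a stress cytokine gene, had 53.4 and 33.8 normalised read counts in WT, 7.74 and 4.57 with ACreb3l2, 19.8 and 12.7 with AXBP1 and 7.91 and 5.33 with both transgenes. Fgf21, a metabolic hormone gene, had 19.4 and 41.4 in WT and 0 to 5.93 in the transgenic libraries, and Adm2, a peptide hormone gene, had 22.3 and 29.4 in WT and 0 to 3.46. Slc7a3, the transporter gene under the same limit, had 34 and 28.4 in WT and 7.99 to 23.7 in the transgenic libraries.

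Genes around the kinase and the factors were also followed. Of 16 genes for other eIF2 kinases, eIF2, its exchange factor eIF2B and regulators of these, such as Impact, Dnajc3 and Ppp1r15b, edgeR called 0 in ACreb3l2 (7 lower and 2 higher at an unadjusted p under 0.05, 2 lower by DESeq2) and 2 lower in ACreb3l2/AXBP1, the eIF2B subunit genes Eif2b4 (-0.72, adjusted p = 0.0142 in edgeR) and Eif2b5 (-0.30, adjusted p = 0.0476 in edgeR). The 2 that were higher were the kinase genes Eif2ak2 (0.27, with 0.33 and adjusted p = 0.0622 in edgeR in ACreb3l2/AXBP1) and Eif2ak4 (0.24, with 0.12 in ACreb3l2/AXBP1), named after their values were seen. The calls of Eif2b4 and Eif2b5 were lost without WT replicate 2 and without ACreb3l2/AXBP1 replicate 2, and that of Eif2b5 was made in only 5 of 17 alternatives. The medians of the list were -0.13, -0.13 and -0.15 in ACreb3l2, AXBP1 and ACreb3l2/AXBP1. Of 12 bZIP partner genes tested, 1 was called lower in ACreb3l2, Cebpg (-0.40, adjusted p = 0.0252 in edgeR), and 4 in ACreb3l2/AXBP1, with medians of -0.10, -0.18 and -0.34. These 4 were Jund (-0.67, adjusted p = 0.0108 in edgeR), Cebpg (-0.31, adjusted p = 0.036 in edgeR), Mafg (-0.34, adjusted p = 0.0436 in edgeR) and Cebpb (-0.88, adjusted p = 0.0465 in edgeR). At an unadjusted p under 0.05, 1 partner gene was higher in ACreb3l2 and 1 in ACreb3l2/AXBP1. Batf3, under the limit of the mean count, had 3.89 and 4.36 normalised read counts in WT. It had 12 and 9.14 with ACreb3l2, 7.91 and 9.24 with AXBP1 and 2.97 and 5.33 with both transgenes. Without ACreb3l2/AXBP1 replicate 2, or without WT replicate 2, 0 of the 4 were called, and the call of Cebpg in ACreb3l2 was lost in 11 of 17 alternatives.

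A mixed list held genes linked to CHOP, such as the ER oxidase gene Ero1l and Tnfrsf10b, and genes of cell death and survival, such as Bbc3, Casp12 and Bcl2. Of 10 tested, edgeR called 0 lower against WT in any group (0 at an unadjusted p under 0.05 and 0 by DESeq2), with medians of 0.12, -0.04 and 0.16 in ACreb3l2, AXBP1 and ACreb3l2/AXBP1. In ACreb3l2/AXBP1 1 was called higher, Txnip, which encodes a thioredoxin inhibitor (0.69, adjusted p = 0.0465 in edgeR), beside 477 of 15580 genes called higher in all, a call made in 7 of 17 alternatives. DESeq2 also called 1 higher in ACreb3l2. The list of the other 2 arms of the unfolded protein response, IRE1-XBP1 and ATF6, had 20 genes. Of these 0 were called in ACreb3l2 (6 lower at an unadjusted p under 0.05, 3 by DESeq2), 0 in AXBP1 (8 and 1) and 9 lower in ACreb3l2/AXBP1, with medians of -0.18, -0.28 and -0.41. Named by lowest adjusted p, they were led by the chaperone gene Dnajb9 (-0.54, adjusted p = 0.00676 in edgeR), the translocon subunit gene Sec61b (-0.66, adjusted p = 0.00848 in edgeR) and Ern1, the IRE1 gene (-0.54, adjusted p = 0.0169 in edgeR). The widest change was that of Syvn1, a ubiquitin ligase of ER degradation (-0.73, adjusted p = 0.0193 in edgeR). Without ACreb3l2/AXBP1 replicate 2, 0 of the 20 were called, and 1 without WT replicate 2.

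**Figure D4:**
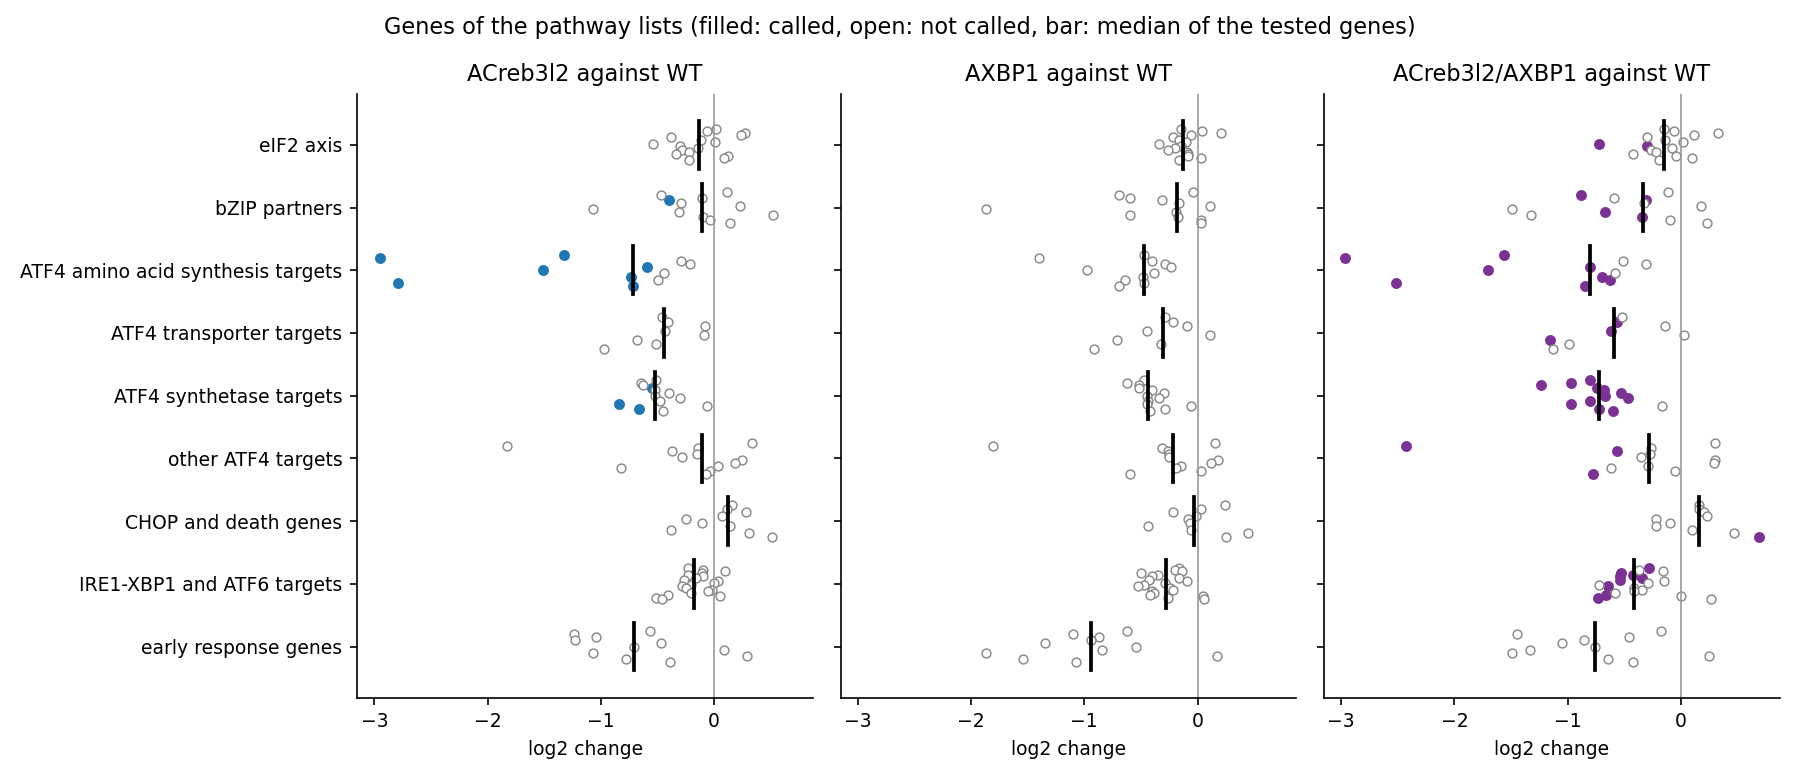
Log2 change against WT of each tested gene of 9 pathway lists, 1 panel per transgenic group; filled points were called by edgeR, open points were not, and black bars are list medians. The medians of the ATF4 synthesis (-0.80), transporter (-0.59), synthetase (-0.72) and early response (-0.76) lists lie farthest to the left in ACreb3l2/AXBP1, the last with no called gene, and that of the CHOP and death genes lies right of 0 (0.16).

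The genes whose pattern over the 8 libraries was most like that of Atf4 were found by the root mean square difference of their log2 CPM, each centred on its own mean. Among 15579 other tested genes the nearest was Mogs, the ER glucosidase that begins the trimming of N-glycans, at 0.116. Slc7a1 (0.123), the tRNA methyltransferase subunit gene Trmt61a (0.127) and the noncoding 2810425M01Rik (0.138) were also near, as was Asns at rank 6 (0.145). Cdr2l, Pprc1, Nans and Gpr135 lay at 0.151 to 0.16. Mogs changed by -0.85 in ACreb3l2 (adjusted p = 0.0119 in edgeR) and by -1.24 in ACreb3l2/AXBP1 (adjusted p = 0.00207 in edgeR), with -0.53 in AXBP1 (adjusted p = 0.474 in edgeR).

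The members themselves ranked from near to far on this measure. Ppp1r15a stood at rank 32, Ddit3 at 110, Sesn2 at 219, Atf5 at 229 and Eif2ak3 at 488. Trib3 stood at 867 and Chac1 at 3558, both with larger log2 changes than Atf4, and Atf3 stood at 15228. The likeness rests on 8 libraries in 4 groups and is a description.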

How the data were processed

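RNA of 8 NIL pools was sequenced as paired reads. The labels name ribosomal depletion, whereas the study's methods name a stranded mRNA kit. The deposited counts are whole reads per Ensembl gene, which the authors obtained with Tophat on mm10 and HTSeq and did not normalise. The deposited FPKM are the authors' estimates per kilobase of transcript, scaled to depth. A software list of the study names a further aligner, and the annotation release and the strand setting of the counting are not given in the sources used here.

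Counts were fitted in edgeR 4.0.16 (R 4.3.3) with TMM factors (0.913 to 1.10), a mean per group over all 8 libraries and the robust quasi-likelihood test, for 15580 genes with a mean scaled count above 20. P-values were adjusted over all tested genes by the Benjamini-Hochberg method, and called means under 0.05. The script was tested on simulated data. Normalised read counts are counts over the TMM-scaled library size, times its mean. Log2 CPM had a prior count of 2. Nothing states that pools were separate cohorts, so p-values measure the spread between these libraries. Alternatives were DESeq2 1.42.0, limma 3.58.1 on log2 FPKM with a pseudocount of 1 or 0.1 (low genes are then understated), other scaling and filters, and each library left out, where the lone library of a group is assumed to vary like the other groups. Libraries of a group were distinct (chi-squared per gene 9.91 to 44.6). With 2 libraries per group a permutation test of 2 against 2 cannot reach 0.05.

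The members and gene lists were chosen with earlier results of these data known. Named were all 10 members, up to 3 called genes per list with the lowest adjusted p in ACreb3l2/AXBP1 against WT and the one with the widest change, and the 10 genes nearest Atf4, of which 1 is not reported here.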

Additional observations from a re-analysis of the deposited data

Results flagged for a closer look

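Among the 10 members, 1 differed between the single transgenes by a direct test. Eif2ak3 was lower in ACreb3l2 than in AXBP1 by a log2 change of -0.53 (± 0.09 SE, adjusted p = 0.0266 in edgeR), with 1909 and 2024 normalised read counts in the ACreb3l2 libraries and 2859 and 2838 in the AXBP1 libraries. The adjusted p ran from 0.000131 to 0.276 over 17 alternatives, 10 of which called it. Groups of 2 libraries were not tested for outlying samples.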

How the results depend on the processing

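All 18 called results of the members kept their direction in 17 alternatives, and 8 kept their call in all of them. The members called, given for the 7 comparisons in the order ACreb3l2, AXBP1 and ACreb3l2/AXBP1 against WT, ACreb3l2 against AXBP1, ACreb3l2/AXBP1 against ACreb3l2 and against AXBP1, and the interaction, were 7, 0, 9, 1, 0, 1 and 0. Without the filter on low counts, which tested 29547 genes, they were 10, 8, 10, 2, 3, 5 and 3. DESeq2 called 8, 6, 9, 1, 0, 3 and 0, and FPKM with a pseudocount of 1 gave 6, 4, 9, 0, 0, 0 and 0 (with 0.1, 3 for AXBP1 against WT and otherwise the same). In ACreb3l2/AXBP1 against WT, DESeq2 called 2038 of all genes and FPKM 1107 and 1120. With only the libraries compared 2 members were called in ACreb3l2/AXBP1 against AXBP1. Leaving out each library gave 3 to 7, 0 to 3, 6 to 10, 0 to 1, 0 to 0, 0 to 2 and 0 to 0. The cause of these shifts was not tested. Over all genes, ACreb3l2 against WT had 473 calls, 1455 without the filter, 751 with DESeq2, 270 and 284 with FPKM, 275 with only the libraries compared, 304 by library size alone and 153 to 618 without 1 library. AXBP1 against WT had 0 calls, 628 without the filter, 73 with DESeq2, 9 and 6 with FPKM, 3 with the replicate block, 2 with only the libraries compared and 0 to 9 without 1 library. ACreb3l2/AXBP1 against WT had 1566 calls, 3209 without the filter, 654 with only the libraries compared and 218 to 2084 without 1 library. ACreb3l2 against AXBP1 had 112, 730 without the filter, 258 with DESeq2, 30 and 45 with FPKM and 18 to 152 without 1 library. ACreb3l2/AXBP1 against ACreb3l2 had 0, 513 without the filter, 36 with DESeq2 and 0 to 11 without 1 library. ACreb3l2/AXBP1 against AXBP1 had 97, 755 without the filter, 283 with DESeq2, 32 and 37 with FPKM, 58 with the replicate block, 55 by library size alone and 7 to 155 without 1 library. The interaction had 0, 126 without the filter, 4 with DESeq2 and 0 to 2 without 1 library. Library size alone moved the median of all genes in ACreb3l2/AXBP1 against WT to 0.17 and its calls from 477 higher and 1089 lower to 1104 and 546, with all 9 called members still lower.

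The replicate numbers did not pair the libraries: deviations of same-numbered libraries correlated at -0.197 to 0.0887. With the replicate block the members called were 6, 1, 9, 0, 0, 1 and 0 in the order above. Over all genes the calls were 321, 3, 1113, 95, 0, 58 and 0. Eif2ak3 was thus not called in ACreb3l2 against AXBP1.

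None of the values that changed sign was called. By library size alone these were Eif2ak3 in AXBP1 against WT (0.01), and Ddit3 (0.03) and Sesn2 (0.03) in ACreb3l2/AXBP1 against ACreb3l2. On FPKM with a pseudocount of 1 and 0.1 they were Atf4 (0.07 and 0.07), Trib3 (0.09 and 0.13) and Chac1 (0.04 and 0.05) in ACreb3l2 against AXBP1, and the interaction of Eif2ak3 (0.09 and 0.10). In these fits the median of all tested genes was 0.15 and 0.18 in ACreb3l2 against AXBP1. It was 0.09 and 0.1 for the interaction. Leaving out each library gave -1.89 to 0.04 for Atf3 in ACreb3l2 against WT and -0.13 to 0.02 for Eif2ak3 in AXBP1 against WT. In ACreb3l2 against AXBP1 it gave -0.07 to 0.25 for Ppp1r15a, -0.22 to 0.02 for Trib3, -0.43 to 0.11 for Chac1, -0.00 to 0.18 for Asns and -0.03 to 0.25 for Sesn2. In ACreb3l2/AXBP1 against ACreb3l2 it gave -0.29 to 0.03 for Atf5, -0.14 to 0.01 for Ddit3, -1.13 to 0.79 for Atf3 and -0.15 to 0.03 for Sesn2, and in ACreb3l2/AXBP1 against AXBP1 -0.08 to 0.20 for Sesn2. For the interaction it gave -0.13 to 0.04 for Eif2ak3, -0.01 to 0.31 for Atf5 and -0.11 to 0.28 for Ppp1r15a. Precision is limited by the 2 libraries per group and, for the least counted members, by depth, as the lowest count of a member was 97, in Trib3.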
